A study of Mus musculus with 4 samples.

Results

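The MEIS, PBX and PKNOX genes encode cofactors of the Hox proteins, and 8 of them were followed here: Meis1, Meis2, Meis3, Pbx2, Pbx3, Pbx4, Pknox1 and Pknox2. They were taken by name, through their Ensembl identifiers, from the 55401 genes listed in each table, and 8 of 8 were found. Messenger RNA had been sequenced from 2 libraries of EB3-derived mouse embryonic stem cells that express NUP98-HOXA9, from 1 library of EB3-derived wild-type cells with an empty vector, and from 1 library of the parental wild-type EB3 line. All were grown on gelatin with serum and LIF, the cytokine that keeps such cells undifferentiated. NUP98-HOXA9 is a fusion known from acute myeloid leukaemia that joins a repeat-rich part of a nucleoporin to the DNA-binding homeodomain of HOXA9. The labels do not give the promoter of the fusion, nor say if its 2 libraries are different clones or different cultures. A p-value here therefore measures the spread between libraries and nothing beyond it, and that spread may be technical. The 2 wild-type libraries are 2 kinds of control, and the empty vector is represented by 1 library.

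Hox proteins bind short, similar DNA sites on their own and gain specificity by pairing with cofactors of the TALE class, homeodomain proteins with an extra loop between the first helices of the domain. PBX proteins pair with Hox proteins on DNA. MEIS and PKNOX (also called PREP) proteins bind PBX through a shared N-terminal region, which brings PBX into the nucleus and steadies it, and MEIS proteins also contact posterior Hox proteins such as HOXA9. In leukaemia, MEIS1 is the best known partner of HOXA9, and PBX3 is a second.

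The coding sequence that marks the TALE class was read from the GENCODE M21 transcripts (GRCm38) for all 8 genes, to show how alike the members are that differ in their RNA levels below. Each line gives, 5′ to 3′ on the sense strand, the 96 coding bases from the loop insertion to the recognition helix. Capitals mark the 3 codons of the loop insertion and then the codons of the tryptophan, phenylalanine and asparagine that begin the recognition motif. Each stretch is exonic and crosses 1 intron.
Meis1: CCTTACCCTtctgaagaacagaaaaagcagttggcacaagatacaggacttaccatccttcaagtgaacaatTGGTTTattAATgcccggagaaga
Meis2: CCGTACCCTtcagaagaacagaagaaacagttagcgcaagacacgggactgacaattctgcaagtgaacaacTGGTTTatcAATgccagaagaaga
Meis3: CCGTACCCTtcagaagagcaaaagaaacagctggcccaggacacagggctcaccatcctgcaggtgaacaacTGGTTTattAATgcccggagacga
Pbx2: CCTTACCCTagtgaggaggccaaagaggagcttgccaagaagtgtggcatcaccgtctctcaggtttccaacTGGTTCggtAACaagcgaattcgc
Pbx3: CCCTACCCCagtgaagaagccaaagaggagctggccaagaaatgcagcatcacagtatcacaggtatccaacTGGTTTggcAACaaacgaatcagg
Pbx4: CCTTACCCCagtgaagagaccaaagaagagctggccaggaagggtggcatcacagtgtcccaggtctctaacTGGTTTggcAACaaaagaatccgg
Pknox1: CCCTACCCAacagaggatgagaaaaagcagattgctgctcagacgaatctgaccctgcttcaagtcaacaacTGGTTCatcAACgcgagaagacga
Pknox2: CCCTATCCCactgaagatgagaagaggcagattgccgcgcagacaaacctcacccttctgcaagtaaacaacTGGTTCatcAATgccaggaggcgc

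These stretches lie at chr11:18885630-18905762 (minus strand) for Meis1, chr2:115868782-115921745 (minus) for Meis2 and chr7:16183794-16184059 (plus) for Meis3. Those of the PBX genes lie at chr17:34594655-34594833 (plus) for Pbx2, chr2:34178310-34204842 (minus) for Pbx3 and chr8:69866541-69870061 (plus) for Pbx4. Those of the PKNOX genes lie at chr17:31602789-31603208 (plus) for Pknox1 and chr9:36894477-36895384 (minus) for Pknox2. Over the 63 codons of the homeodomain, genes of the same subfamily shared 88.9% to 98.4% of encoded residues but 78.3% to 84.7% of bases (7 pairs). Between subfamilies the range was 33.3% to 71.4% of residues and 44.4% to 71.4% of bases (21 pairs), and by residues the pairs of MEIS with PKNOX genes were closer than any pair of either with a PBX gene. Pbx2 and Pbx3 shared 96.8% of residues and 82.5% of bases, and Meis1 and Meis2 shared 98.4% and 84.1%. RSEM shares out reads that map to several genes. Meis1 had a fractional count in 1 library (281.34) and Pbx2 in all 4, while the other 6 genes had whole counts throughout. Pbx2 shares 227 of its 3640 exonic bases with Gpsm3 on the same strand, which had 82.22 to 103.07 counts over the 4 libraries. Meis1 shares 1029 of 10532 with Gm37818, which had at most 5.66 counts. The antisense transcript that overlaps Meis1 exons, Gm16140, had 0 counts in all 4 libraries. Another antisense transcript, AC166172.4, overlaps 155 of the 6933 exonic bases of Pknox1 and had 1 to 8 counts. The kit marks strand, but the strand setting of the counting is not stated in what was read here.

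Libraries held 19021386 to 21151729 expected counts, that is, read counts estimated per gene. CPM here are TMM-scaled counts, the TMM method being edgeR's scaling to library size and composition. Hoxa9 stood at 189.7 and 127 CPM in NUP98-HOXA9 replicates 1 and 2 and at 0 in the empty-vector and parental libraries. The labels give the genotype and not this level. Counts per gene do not tell reads of the fusion from reads of the cells' own Hoxa9 gene. Nup98, the other partner, had 310 and 296 CPM in fusion cells and 218 and 216 CPM in the empty-vector and parental libraries. Its log2 fold change was 0.48 (adjusted p = 0.161 with edgeR). Per length the gap was wider, at 99.9 and 93.4 TPM in fusion cells against 51.6 and 47.3 TPM. The effective length RSEM gave Nup98 was 4571 and 4828 bases in fusion cells, against 6099 and 6122 bases in the empty-vector and parental libraries. All 8 undifferentiated-cell markers were detected above 1 TPM in at least 1 library and none passed the test (4 at an unadjusted p under 0.05 with edgeR, 3 called by DESeq2). Those 3 were Nanog (log2 1.11 in the edgeR fit), Klf4 (1.4) and Tfcp2l1 (0.83), all on the higher side. Dppa3 (-2.86) was on the lower side, at 1.17 and 16.05 TPM in fusion cells against 45.2 and 68.8 TPM. The summed levels of all 8 were 3156 and 2826 TPM in the fusion libraries and 2809 and 2425 TPM in the empty-vector and parental libraries. All 8 endoderm markers passed and were higher in fusion cells. They summed to 169 and 178 TPM there, against 11.8 and 14.9 TPM in the empty-vector and parental libraries, with none at 0 in all 4 libraries. Of the other marker lists, 1 of 7 tested fibroblast genes (Pdgfrb) passed, higher in fusion cells. Of 4 tested neural genes, 1 (Sox1) passed, also higher, while 3 were at an unadjusted p under 0.05 with edgeR and 3 were called by DESeq2, with Pax6 (log2 -2.08 in the edgeR fit) and Nes (-1.33) on the lower side. Of the rest, 0 of 5 mesoderm and 0 of 4 blood genes did (2 each at an unadjusted p under 0.05 with edgeR, 1 each by DESeq2). In NUP98-HOXA9 replicates 1 and 2 fibroblast markers summed to 44.4 and 57.9 TPM, against 23.9 and 34.1 TPM in the empty-vector and parental libraries. Blood markers summed to 7.31 and 10.4 TPM in fusion cells, against 8.76 and 4.41 TPM, and Hbb-bh1 was at 0 throughout. Mesoderm sums ran between 9.75 and 18.7 TPM and neural sums between 87.8 and 100 TPM over the 4 libraries, with overlap between the groups. In bulk RNA, more cells of a type and more RNA per cell cannot be told apart.

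Of the 8 cofactor genes, Pbx3 rose in fusion cells, 4.07-fold, and it was the one member past the test. Meis1 and Meis2 had large folds with a wide gap between the fusion libraries, and Pbx2 had a fold near 2 with little gap; none of these 3 passed. Meis3, Pbx4, Pknox1 and Pknox2 did not pass either, with adjusted p-values of at least 0.641 in the edgeR fit. The test was edgeR's quasi-likelihood test of fusion (n = 2) over wild type (empty vector and parental, n = 2), with p-values adjusted by Benjamini-Hochberg over 16511 genes and a threshold of 0.05. The share past the threshold was 1 of 8 members against 3.42% of all genes tested (2.83% higher in fusion cells). All 8 members were tested, and each had at least 16 counts in every library, so none passed the filter on low counts through the fusion libraries alone. At an unadjusted p under 0.05 stood 4 members, against 20.1% of all genes tested. Log2 fold changes were positive for 7 members, against 49.7% of all genes tested. The median log2 fold change was 0.77 over the 8 members and -0.0034 over all genes tested. Since the members were chosen with earlier results of these data known, these comparisons with all genes are descriptions, not independent support. The endoderm markers moved with the same libraries, and their part in the cofactor values was not tested.

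**Figure D1:**
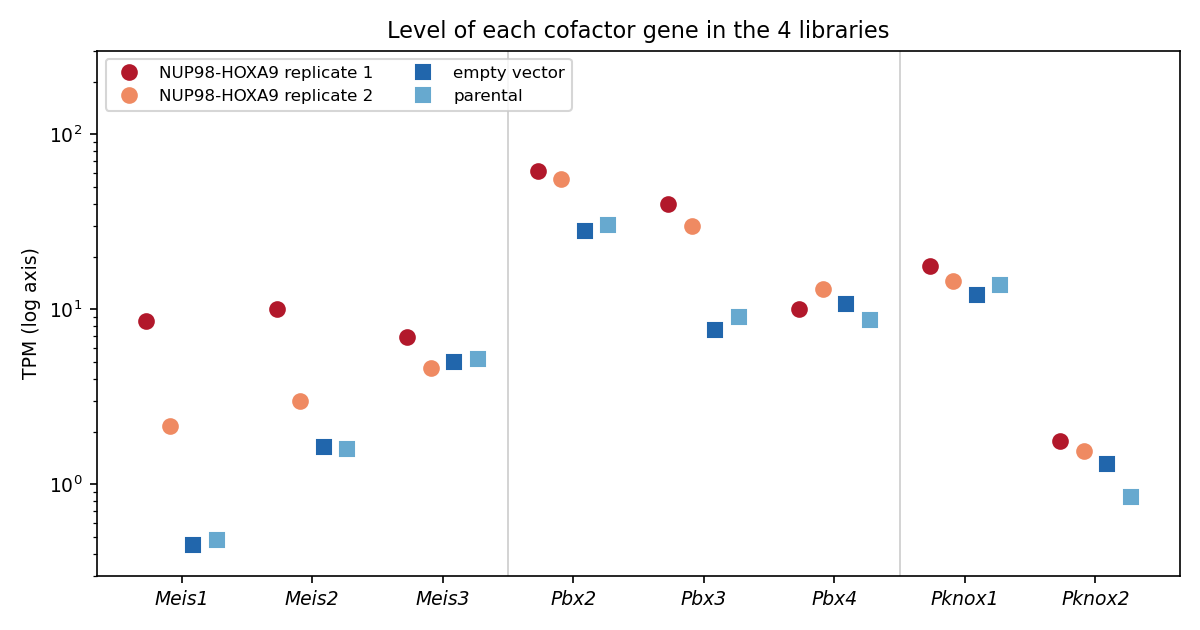
Level of each cofactor gene in TPM (length-scaled share of all transcripts, log axis) in NUP98-HOXA9 replicates 1 and 2 (circles) and in the empty-vector and parental libraries (squares), 1 point per library. Both fusion libraries stand above both wild-type libraries for Meis1, Meis2, Pbx2, Pbx3, Pknox1 and Pknox2, and the groups overlap for Meis3 and Pbx4.

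Levels of different genes were compared in TPM, which is scaled by transcript length. In fusion cells the order of mean levels was Pbx2 (58.5 TPM), Pbx3 (34.9), Pknox1 (16.1), Pbx4 (11.5), Meis2 (6.5), Meis3 (5.77), Meis1 (5.35) and Pknox2 (1.65). Neighbours from Pbx4 to Meis1 overlapped in their ranges over the 2 libraries and so did not differ beyond their spread. In wild-type cells the order was Pbx2 (29.3 TPM), Pknox1 (12.9), Pbx4 (9.67), Pbx3 (8.33), Meis3 (5.08), Meis2 (1.61), Pknox2 (1.07) and Meis1 (0.465). There, Pbx4 and Pbx3 overlapped and the other neighbours did not. Pbx3 thus stood above Pknox1 in fusion cells and below it in wild-type cells, and Pbx2 was first in both. Counted over the members, 6 of 8 had both fusion libraries above both wild-type libraries in TPM, against 32.4% of all genes tested, and 5 of those 6 did not pass the test. The count depends on the unit, since in CPM the groups overlapped for Pknox1 and Pknox2 as well as for Meis3 and Pbx4. The share of all genes was taken in TPM only.

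Among the PBX genes, the direct DNA-binding partners of Hox proteins, Pbx3 (chromosome 2, 34171457 to 34373142, minus strand) was the one that passed the test. It had 39.9 and 29.9 TPM in NUP98-HOXA9 replicates 1 and 2, against 7.63 TPM with the empty vector and 9.03 TPM in the parental line. Both fusion libraries were high, both controls were low, and the groups did not overlap. In scaled counts that was 51.5 ± 12.3 CPM in fusion cells and 12.7 ± 2.44 CPM in wild-type cells (SD, n = 2 each). The log2 fold change was 2.02 (SE 0.27, adjusted p = 0.0176), and 4.24% of the genes tested had one at least as high. The direction held in 15 of 15 alternative analyses, but these reuse the same libraries, and with groups this far apart it could hardly turn. The call held in 12. The 3 without the call were those that left out NUP98-HOXA9 replicate 1 (log2 1.75, adjusted p = 0.0795), or set the fusion against the empty vector alone (log2 2.24, adjusted p = 0.0536) or the parental line alone (log2 1.84, adjusted p = 0.0744). In a fit against 1 control library, 0.497% of all genes passed with the empty vector and 0.63% with the parental line. No member did in either with edgeR, and DESeq2 was not run on 1 control. At an unadjusted p under 0.05 stood 4 members in each, against 15.3% of all genes with the empty vector and 16.1% with the parental line.

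Pbx2 (chromosome 17, 34591266 to 34597400, plus strand) encodes a widely expressed PBX protein and was the most abundant of the 8. It had 62 and 55.1 TPM in NUP98-HOXA9 replicates 1 and 2, against 28.1 TPM with the empty vector and 30.4 TPM in the parental line. In TPM the libraries of each genotype lay close together and the groups did not overlap. The controls lay further apart in scaled counts, at 39.4 CPM with the empty vector and 49.8 CPM in the parental line. The fusion libraries had 93.2 and 82.9 CPM, again without overlap. Means were 58.5 ± 4.83 TPM in fusion cells and 29.3 ± 1.57 TPM in wild-type cells (SD, n = 2 each). With a log2 fold change of 0.98 (SE 0.2), the adjusted p of 0.0507 lay just above the threshold. In 6 of 15 alternatives the adjusted p was under 0.05, among them library totals (adjusted p = 0.042), a filter of 1 CPM in 2 libraries (adjusted p = 0.0479) and limma on log2(TPM + 1) (adjusted p = 0.0466). In the 9 others it was up to 0.209, the value without NUP98-HOXA9 replicate 1, with 0.206 against a fold of 1.5, 0.183 against the parental line alone and 0.156 without the empty-vector library.

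Pbx4, a PBX gene best known from the testis, lies on chromosome 8 (69832491 to 69872292, plus strand). It had 10 and 13 TPM in NUP98-HOXA9 replicates 1 and 2, against 10.7 TPM with the empty vector and 8.64 TPM in the parental line. The groups overlapped, and replicate 2 was the highest library where replicate 1 was highest for the 7 other members. Pbx4 had a log2 fold change of -0.13 (SE 0.38, adjusted p = 0.899), and its sign turned with limma on log2(TPM + 1) to 0.23. The effective length RSEM gave Pbx4 was 605 and 727 bases in the fusion libraries and 752 and 888 bases in the empty-vector and parental libraries, so its levels per length and its counts point different ways. Of 549 genes on chromosome 8 with a mean of at least 10 CPM, the median in the parental library lay 0.4 log2 units above the mean of the other 3, while on the other chromosomes that carry members no such median passed 0.084 in size. The part of this in the Pbx4 value was not tested.

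Summed over the 3 PBX genes, the level was 112 and 98 TPM in NUP98-HOXA9 replicates 1 and 2, against 46.5 TPM with the empty vector and 48 TPM in the parental line. Pbx3 made up 35.7% and 30.5% of that sum in the fusion libraries, against 16.4% and 18.8% in the empty-vector and parental libraries. Pbx4 made up 8.95% and 13.3% in the fusion libraries, against 23% with the empty vector and 18% in the parental line. Pbx2 remained the larger part, at 55.4% and 56.3% in fusion cells and 60.6% and 63.2% with the empty vector and in the parental line. These shares are descriptions of 4 libraries and carry no test.

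**Figure D2:**
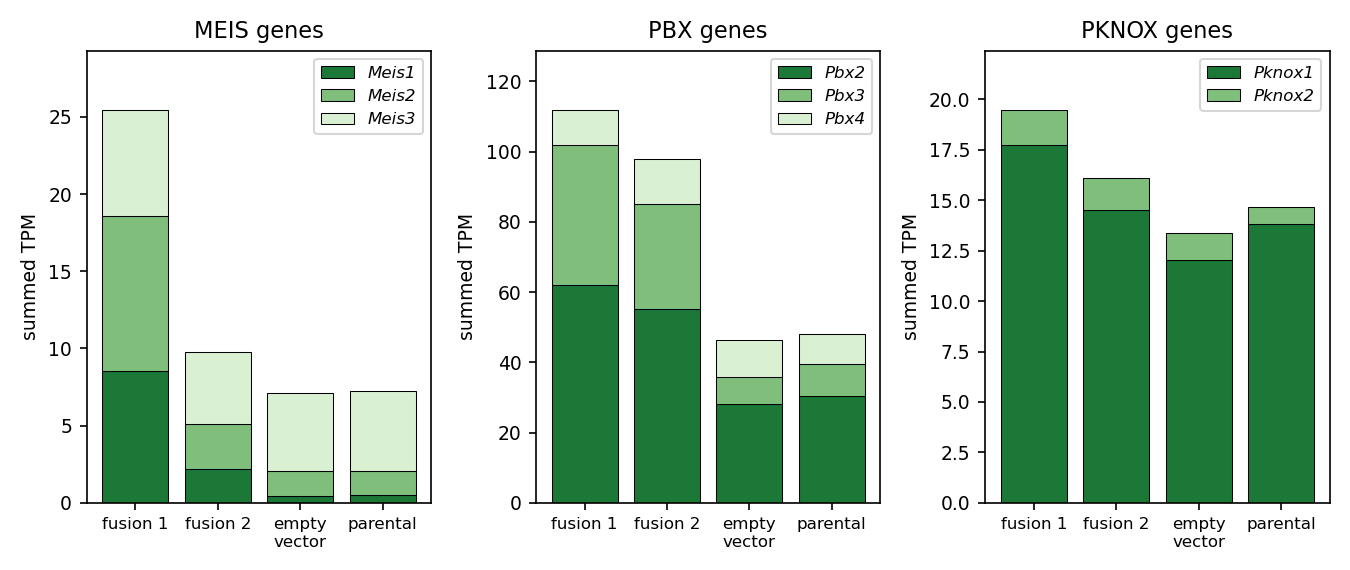
Summed TPM of the 3 MEIS, 3 PBX and 2 PKNOX genes in each library (bars from 0, 1 bar per library, stacked by gene; fusion 1 and 2 are the NUP98-HOXA9 replicates). The PBX sum is 112 and 98 TPM in fusion cells against 46.5 and 48 TPM in the empty-vector and parental libraries, and the MEIS sum is 25.5 TPM in replicate 1 and 9.77 TPM in replicate 2.

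Meis1 (chromosome 11, 18879817 to 19018985, minus strand), the MEIS gene most tied to HOXA9 leukaemia, was the least abundant member in wild-type cells. It had 8.54 TPM in NUP98-HOXA9 replicate 1 and 2.16 TPM in replicate 2, against 0.45 TPM with the empty vector and 0.48 TPM in the parental line. Behind these levels stood 281.34 and 79 counts in fusion cells and 16 and 22 counts in the empty-vector and parental libraries. Both fusion libraries were above both controls, but they differed 3.91-fold from each other in scaled counts (95% exact binomial interval 3.03 to 5.08, counting error only). The log2 fold change was 3.14 (SE 0.71), the highest of the 8, and did not pass (adjusted p = 0.062). Without NUP98-HOXA9 replicate 1 it was 1.84 (adjusted p = 0.237), and without replicate 2 it was 3.81 (adjusted p = 0.0184). DESeq2's Wald test, which called 1363 genes in all, gave an adjusted p of 0.00018.

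Meis2 (chromosome 2, 115863064 to 116065839, minus strand), a developmental regulator known as a retinoic acid-responsive gene, had the same order of libraries as Meis1 in fusion cells. It had 10 TPM in NUP98-HOXA9 replicate 1 and 2.97 TPM in replicate 2, against 1.64 TPM with the empty vector and 1.59 TPM in the parental line. The fusion libraries differed 2.67-fold in scaled counts (interval 2.12 to 3.38), and both lay above the controls in CPM, at 12.8 and 4.79 CPM against 1.38 CPM with the empty vector and 2.19 CPM in the parental line. Meis2 had a log2 fold change of 2.29 (SE 0.57) that did not pass (adjusted p = 0.0798). It was 1.42 without NUP98-HOXA9 replicate 1 (adjusted p = 0.352) and 2.84 without replicate 2 (adjusted p = 0.0425). The effective length of Meis2 was 1882 and 2451 bases in fusion cells, against 1215 bases with the empty vector and 1847 bases in the parental line, so TPM and counts differ in size. On the log2(TPM + 1) scale of limma, which understates changes of low genes, the difference was 1.34.

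Meis3 (chromosome 7, 16175090 to 16186504, plus strand), which acts in hindbrain patterning in the frog and fish, had 6.9 and 4.64 TPM in NUP98-HOXA9 replicates 1 and 2, against 5 TPM with the empty vector and 5.16 TPM in the parental line. The groups overlapped, since replicate 2 lay below both controls. The log2 fold change was 0.088 (SE 0.37, adjusted p = 0.93). Meis3 supplied 27.1% and 47.5% of the MEIS sum in NUP98-HOXA9 replicates 1 and 2, against 70.5% and 71.4% in the empty-vector and parental libraries. Meis1 supplied 33.5% and 22.1% in the fusion libraries, against 6.35% and 6.64% in the empty-vector and parental libraries. The ratio of Meis1 to Meis3 in TPM was 1.24 and 0.466 in fusion cells, against 0.09 and 0.093 in the empty-vector and parental libraries.

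The PKNOX genes, whose products compete with MEIS proteins for PBX, had a summed level that differed by 0.34 log2 units between fusion and wild-type cells, against 1.14 for the MEIS sum, whose SD of 0.98 takes in the PKNOX value. Neither gene passed the test. Pknox1 (chromosome 17, 31564734 to 31607693, plus strand), the widely expressed PREP1 gene, had 17.7 and 14.5 TPM in NUP98-HOXA9 replicates 1 and 2, against 12.1 TPM with the empty vector and 13.8 TPM in the parental line. In TPM the groups did not overlap, while in CPM they did, with 39.1 and 29.2 CPM in fusion cells against 27 and 30.6 CPM. The log2 fold change was 0.25 (SE 0.24, adjusted p = 0.641). Pknox2 (chromosome 9, 36890982 to 37147407, minus strand), its more restricted paralogue, had 1.76 and 1.54 TPM in fusion cells, against 1.31 TPM with the empty vector and 0.84 TPM in the parental line. In CPM, unlike in TPM, Pknox2 had overlapping groups, with 4.01 and 2.51 CPM in fusion cells against 3.08 and 1.35 CPM. The effective length of Pknox2 was 3357 and 2480 bases in fusion cells, against 3383 and 2165 bases in the empty-vector and parental libraries. The log2 fold change of Pknox2 was 0.55 (SE 0.54, adjusted p = 0.647), and it was 0.082 against the empty vector alone and 1.26 against the parental line alone. The 2 controls differed 2.27-fold in scaled counts for Pknox2 (interval 1.41 to 3.76).

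**Figure D3:**
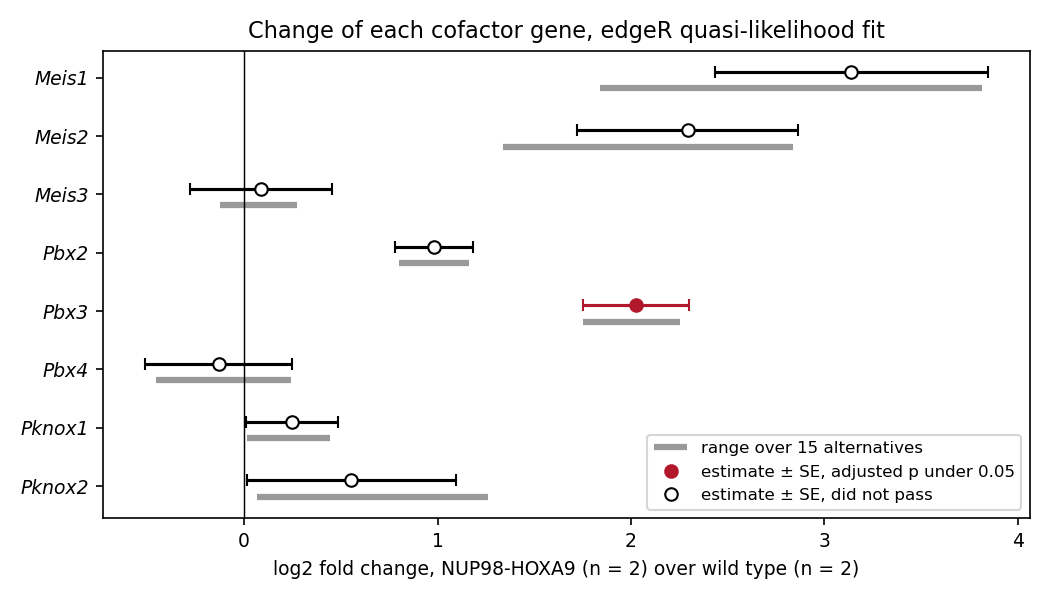
Log2 fold change of NUP98-HOXA9 (n = 2) over wild type (n = 2) for each cofactor gene, with bars of 1 SE from the edgeR fit and, in grey, the range over the 15 alternatives. Pbx3 (filled) passed the test. The grey ranges of Meis3 and Pbx4 cross 0, and those of Meis1, Meis2, Pbx2, Pbx3, Pknox1 and Pknox2 do not. The ranges of Pknox1 and Pknox2 reach down to 0.015 and 0.069.

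Set side by side within each library, the MEIS sum was 1.31 times the PKNOX sum in NUP98-HOXA9 replicate 1 and 0.608 times in replicate 2, against 0.531 with the empty vector and 0.493 in the parental line. The MEIS genes thus exceeded the PKNOX genes in 1 library of 4. The PBX sum was 5.74 and 6.09 times the PKNOX sum in fusion cells, against 3.48 and 3.28 in the empty-vector and parental libraries, and here the groups did not overlap. All 8 genes together came to 157 and 124 TPM in fusion cells and to 66.9 and 69.9 TPM in the empty-vector and parental libraries.

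Replicate 1 of the fusion libraries was above replicate 2 in scaled counts for 7 of 8 members, against 48.2% of all genes tested, by between 1.12-fold (Pbx2, interval 1.05 to 1.2) and 3.91-fold (Meis1). Pbx3 was 1.41-fold higher in replicate 1 (interval 1.29 to 1.53). Pbx4 went the other way, at 0.662 times replicate 2 (interval 0.497 to 0.878). The intervals exclude 1 for all 8 members, against 57.8% of all genes tested, but cover counting error only, and with 1 library each there is no replicate check. Between the controls, the empty vector stood at 0.63 to 0.972 times the parental level for 7 genes, with Pknox2 the exception, while 50.2% of all genes tested were higher with the empty vector. The intervals of Meis1, Meis2, Meis3 and Pbx4 include 1, and those of the other 4 members exclude it, against 53.2% of all genes tested. For Meis1 and Meis2 the gap between the fusion libraries was thus wider than that between the controls. For Pbx3 the fusion over wild-type fold of 4.07 was larger than either within-genotype ratio, taken in either direction. The same held for Meis1 (8.8-fold), Meis2 (4.9-fold) and Pbx2 (1.975-fold), which did not pass the test. It did not hold for Meis3, Pbx4, Pknox1 and Pknox2. The share of all genes tested for which it held was not taken, so it cannot be read as particular to these members.

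**Figure D4:**
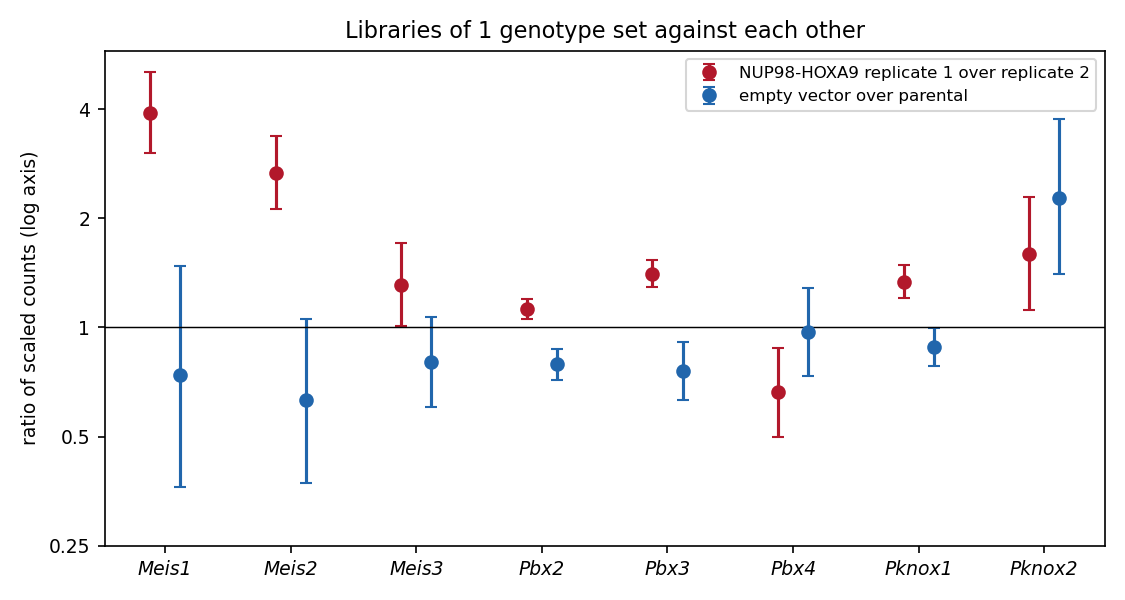
Ratio of TMM-scaled counts (log axis) between the 2 NUP98-HOXA9 libraries (red, replicate 1 over replicate 2) and between the 2 wild-type libraries (blue, empty vector over parental), with 95% exact binomial intervals for counting error only. Meis1 (3.91) and Meis2 (2.67) have the widest gaps between the fusion libraries.

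**Figure D5:**
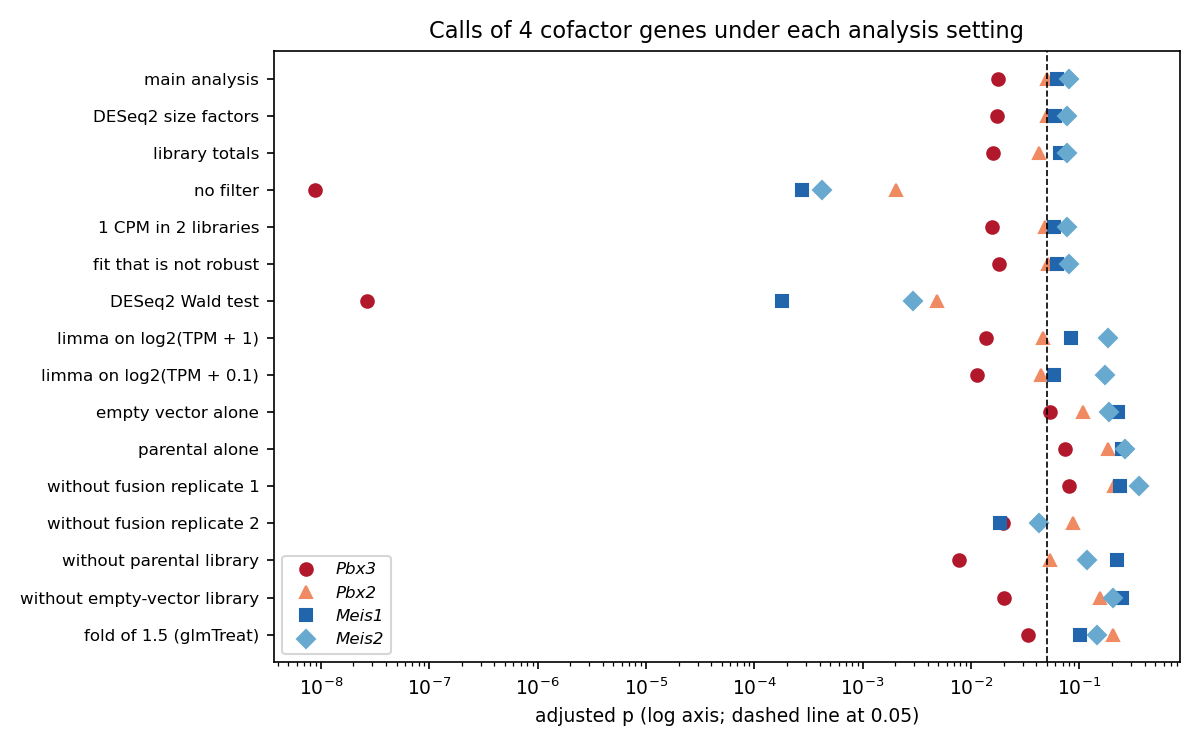
Adjusted p (log axis) of Pbx3, Pbx2, Meis1 and Meis2 in the main analysis and under 15 alternatives, with a dashed line at 0.05. Pbx3 lies left of the line in the main analysis and in 12 alternatives, and all 4 genes lie left of it with DESeq2's Wald test and with no filter on low counts.

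Other genes of the pathway were taken from lists by function. Of 8 tested genes of the other TALE subfamilies (Tgif, Irx and Mkx), 0 passed (3 at an unadjusted p under 0.05 with edgeR, 0 by DESeq2), with a median log2 fold change of 0.68. Tgif1, a repressor of TGF-beta and retinoid signalling and the most abundant of them, had 241 and 239 TPM in NUP98-HOXA9 replicates 1 and 2, against 242 TPM with the empty vector and 173 TPM in the parental line. Tgif2, its close relative, had 21.9 and 38.9 TPM in fusion cells, against 39.2 and 38.8 TPM. Of 7 coregulators that bind PBX or Hox proteins, 0 passed (1 at an unadjusted p under 0.05 with edgeR, 0 by DESeq2), with a median of -0.061. Among them the deacetylase gene Hdac1 had 247 and 213 TPM in fusion cells, against 249 TPM with the empty vector and 199 TPM in the parental line, and the corepressor gene Ncor1 had 217 and 195 TPM, against 198 and 161 TPM. Of 5 tested genes linked to MEIS1 in HOXA9 leukaemia, 0 passed as higher and 1, Myb, was lower, with a median of -0.63. Myb, a regulator of blood progenitors, had 0.62 and 1.45 TPM in fusion cells, against 7.66 TPM with the empty vector and 8.74 TPM in the parental line (log2 -3.12, SE 0.41, adjusted p = 0.0158). In the same list Sytl1, a membrane-trafficking gene, had 4.96 and 5.56 TPM in fusion cells, against 9.88 and 1.24 TPM. Cd34, a surface marker of blood progenitors, had 4.18 and 3.44 TPM in fusion cells, against 6.31 and 2.35 TPM. For Sytl1 and Cd34 the fusion libraries lay between the controls.

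The genes most like Pbx3 in pattern were those with the smallest root mean square distance between log2(CPM + 1) profiles, each centred on its own mean over the 4 libraries, among 16389 genes. They were Prtg (distance 0.03 log2 units), Steap2 (0.046), the predicted gene Gm3724 (0.051) and Myl4 (0.077). The log2 fold changes of these 4 lay between 1.94 and 2.47. Prtg, which encodes the transmembrane protein protogenin, had 86.2 and 61.6 CPM in fusion cells, against 16.5 and 22 CPM in the empty-vector and parental libraries. Myl4, an embryonic and atrial myosin light chain gene, had 8.77 and 6.06 CPM in fusion cells, against 1.17 and 1.67 CPM. With 4 libraries and 2 groups, likeness of this kind describes the order and size of 4 values.

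RefSeq promoter windows (GRCm38.p6, 250 bases before to 50 after the start of transcription) were found for 5 members: Meis1, Meis2, Meis3, Pbx2 and Pbx4. The PBX-HOX motif TGATNNAT was in 0 of these 5 on either strand, against 8.85% of 32851 windows. The MEIS and PKNOX motif TGACAG was in 0 of 5, against 19.18% of windows. The motifs do not contain each other, and no match says only that these letters are not in these windows.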

How the data were processed

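RNA was measured in 4 libraries prepared from poly(A) RNA with a kit that keeps strand, per the labels. The authors deposited, for each library, a table of expected counts, TPM, FPKM and effective length per gene, per the file headers. The submitters' processing notes name STAR 2.7.10a, RSEM 1.3.3, DESeq2 1.36.0 and GRCm38/mm10; the annotation release and the strand setting were not stated. Of 55401 identifiers, 55141 matched GENCODE M21. After rounding, the deposited expected counts went into edgeR 4.0.16 (R 4.3.3; TMM, filterByExpr at a minimum count of 10, robust quasi-likelihood fit, 2 residual degrees of freedom). The SE is the size of the log2 fold change divided by the square root of F. Deposited TPM gave levels, and deposited FPKM an alternative for summed levels. Other alternatives used DESeq2 1.42.0, limma 3.58.1, other scalings and filters, each control alone and each library left out. Named beside the members are Hoxa9, Nup98, genes of the function lists past the threshold, up to 2 others per list by mean TPM, and the 4 genes most like Pbx3. Members and lists were chosen with earlier results of these data known.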

Additional observations from a re-analysis of the deposited data

How the results depend on the processing

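Over all genes, 564 passed; 1946 did with no filter on low counts, 1363 with DESeq2's Wald test, 254 against a fold of 1.5, 82 against the empty vector alone and 104 against the parental line alone, and leaving out 1 library at a time gave 163 (without NUP98-HOXA9 replicate 1) to 552. Of the 8 cofactor genes, 1 passed; 4 did with no filter or DESeq2's Wald test (Meis1, Meis2, Pbx2 and Pbx3), 2 with library totals, with 1 CPM in 2 libraries and with limma on log2(TPM + 1) or log2(TPM + 0.1) (Pbx2 and Pbx3), and 0 against either control alone, while leaving out 1 library gave 0 (without NUP98-HOXA9 replicate 1) to 3 (without replicate 2: Meis1, Meis2 and Pbx3). Signs turned for 2 members that did not pass in any analysis. Meis3 was at -0.061 against the parental line alone and between -0.13 and 0.27 with 1 library left out. Pbx4 was at 0.23 and 0.24 with limma on log2(TPM + 1) and log2(TPM + 0.1) and between -0.46 and 0.13 with 1 library left out. The cause of these shifts was not tested. The summed levels of the MEIS, PBX and PKNOX genes moved by less than their spread under CPM and FPKM. Leaving out 1 library cannot move a sum by more than this spread, which comes from the same libraries. Those alternatives therefore say nothing on how steady the sums are. The MEIS difference of 1.14 log2 units was 0.45 without NUP98-HOXA9 replicate 1 and 1.83 without replicate 2. No paired analysis was possible because the control libraries carry no replicate numbers. Meis1 rests on 16 and 22 counts in the controls, which limits its fold.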
